A study of Arabidopsis thaliana with 12 samples.

Results

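The genes described here are 6 loci that in Arabidopsis form the TMO5-LHW division module and the thermospermine pathway that restrains it. They were taken by locus identifier and are TMO5 (AT3G25710), T5L1 (AT1G68810), LHW (AT2G27230), SACL3 (AT1G29950), ACL5 (AT5G19530) and BUD2 (AT5G18930), 6 of the 34262 loci counted. They had been picked because of how they answered to induction at both times, so their own values below, and the counts of them past the threshold used for all genes, are a description and no test of them. Gene counts came from total RNA of Arabidopsis thaliana roots, all of the genotype 35S:XVE>>PLT5-TagRFP, in which estradiol activates the chimeric regulator XVE and XVE drives a fusion of PLT5 with the red fluorescent protein TagRFP. The 4 groups were mock (DMSO) for 8 h, induced (EST, the estradiol inducer) for 8 h, mock for 24 h and induced for 24 h, with 3 biological replicates each. A replicate pooled 15 plants, from which a stretch of 1.5 cm of root starting under the hypocotyl had been cut and freed of visible lateral roots. The 35S promoter is active in most cell types, so PLT5 was not induced in the cambium alone. Plants without the construct given estradiol are not analysed here, so the action of estradiol itself and that of PLT5 cannot be told apart. The labels state neither plant age nor the number of transgenic lines.

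TMO5 and LHW are basic helix-loop-helix (bHLH) transcription factors that bind each other, and the pair triggers the cell divisions that widen the vascular cylinder, in part by switching on LOG enzymes that release active cytokinin. T5L1 is a close relative of TMO5 that can take its place beside LHW. The same pair also promotes its own brake. It activates ACL5, the enzyme that makes thermospermine, and SACL3, a bHLH protein that binds LHW in place of TMO5. BUD2 makes the decarboxylated S-adenosylmethionine from which thermospermine is built, and thermospermine lets ribosomes pass the inhibitory upstream reading frames in the transcripts of SACL3 and its relatives. In vascular tissue the auxin response factor MP activates TMO5, and the HD-ZIP III factor ATHB8 activates ACL5 and BUD2. Translation and thermospermine itself were not measured in these libraries.

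All 6 genes are nuclear. In TAIR10, TMO5 lies at chr3:9369499-9371487 on the plus strand, T5L1 at chr1:25861094-25863534 (plus), LHW at chr2:11650358-11654143 (plus), SACL3 at chr1:10491698-10494598 (plus), ACL5 at chr5:6588771-6591363 (minus) and BUD2 at chr5:6311725-6313372 (minus). TMO5 and T5L1 each have 2 exons in the RefSeq annotation, SACL3 has 4, ACL5 has 9 and BUD2 has 1. Their coding sequences hold 344 codons for TMO5, 368 for T5L1, 650 for LHW, 251 for SACL3, 339 for ACL5 and 347 for BUD2. TMO5 and T5L1 were identical at 71.8% of 951 aligned coding bases, the closest relation of TMO5 among the 3 other genes of its clade. No stretch of 50 exon bases of any of the 6 genes, out of 1256 to 2315 per gene, occurred elsewhere in the genome, so reads of that length from these exons point to a single place.

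The 250 bases before the annotated start are shown for TMO5 and T5L1, the TMO5 clade genes of the module, which moved in opposite directions at 24 h. They are also shown for ACL5 and BUD2, the enzymes whose course over the libraries, after centring, was most alike. They are given 5′ to 3′ on the gene's own strand, from the RefSeq TAIR10.1 sequence, whose intervals equal those of TAIR10 for these genes. Capitals mark TGTC or its complement GACA, the core of auxin response elements, and AATNATT, a core bound by homeodomain factors. The stretches lie at chr3:9369249-9369498 (TMO5), chr1:25860844-25861093 (T5L1), chr5:6591364-6591613 (ACL5) and chr5:6313373-6313622 (BUD2).
TMO5: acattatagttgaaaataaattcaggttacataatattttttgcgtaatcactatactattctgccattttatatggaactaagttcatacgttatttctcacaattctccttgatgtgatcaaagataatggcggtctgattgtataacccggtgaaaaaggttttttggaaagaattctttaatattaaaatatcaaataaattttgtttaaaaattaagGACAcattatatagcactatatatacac
T5L1: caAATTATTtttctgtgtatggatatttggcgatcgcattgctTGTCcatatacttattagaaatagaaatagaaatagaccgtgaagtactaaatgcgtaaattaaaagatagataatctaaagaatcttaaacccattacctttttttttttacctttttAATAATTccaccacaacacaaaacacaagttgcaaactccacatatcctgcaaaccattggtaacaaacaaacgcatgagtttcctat
ACL5: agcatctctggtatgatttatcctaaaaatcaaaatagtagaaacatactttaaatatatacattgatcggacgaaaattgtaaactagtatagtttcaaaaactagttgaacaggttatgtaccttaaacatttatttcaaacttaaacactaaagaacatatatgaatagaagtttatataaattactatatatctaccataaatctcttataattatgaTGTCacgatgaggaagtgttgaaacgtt
BUD2: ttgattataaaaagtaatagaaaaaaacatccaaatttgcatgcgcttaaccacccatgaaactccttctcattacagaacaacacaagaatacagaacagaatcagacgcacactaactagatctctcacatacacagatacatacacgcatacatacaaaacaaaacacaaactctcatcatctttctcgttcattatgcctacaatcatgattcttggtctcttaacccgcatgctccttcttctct

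Both strands were searched in these stretches and in those of LHW and SACL3, and the same search over 27443 such stretches in the genome gave the background. TGTC occurred in 4 of the 6 genes (TMO5, T5L1, LHW and ACL5) and in 74.8% of all stretches. In TMO5 and in ACL5 it lay 28 bases before the start. AATNATT occurred in T5L1, LHW and SACL3 and in 30.5% of all stretches. The full element TGTCTC, which contains TGTC, was in none of the 6 and in 10.9% of all. The E-box CANNTG, the general bHLH motif, was in none of the 6 and in 55.3% of all, and its form CACGTG was in none and in 6.49% of all. These matches are letters in a short window and describe no binding. Of the BUD2 stretch, 236 bases lie within the counted locus AT5G18933.

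The libraries held 34958324 to 41447647 counts each. PLT5, with native gene and transgene counted together, was checked first. At 8 h mock roots had 13.27 ± 1.49 CPM (TMM-scaled counts-per-million, mean with SD over 3 libraries) and induced roots 2467 ± 143, and at 24 h the values were 14.11 ± 2.78 and 2795 ± 123, which matches the labels. Over 21439 genes tested with edgeR, 4785 were higher and 4963 lower at 8 h with a Benjamini-Hochberg adjusted p under 0.05. Scaling by total counts instead of TMM turned this split into 7407 higher and 3971 lower. Root vascular markers were present in every mock library, with 474.3 to 765.7 summed CPM for 9 xylem vessel genes and 507.0 to 568.6 for 6 cambium genes, while 4 root tip genes summed to at most 1.687 CPM. In whole segments, fewer cells of a type and less RNA per cell cannot be told apart.

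The module did not answer as a block. TMO5, ACL5 and BUD2 were higher in induced than in mock roots at 8 h and lower at 24 h. LHW was higher at 8 h and back at the mock level at 24 h. SACL3 was lower at 24 h without having been higher before, and T5L1 alone was higher at 24 h.

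TMO5, the partner that gives the pair its vascular specificity, measured 58.33, 71.35 and 58.13 CPM in mock replicates 1 to 3 at 8 h, against 82.17, 91.49 and 88.15 CPM after induction. At 24 h the mock libraries had 61.69, 71.85 and 62.91 CPM and the induced libraries 33.91, 39.34 and 42.36 CPM. All 3 induced libraries lay above all mock libraries at 8 h and below all of them at 24 h, while the mock groups of both times overlapped. The log2 difference was 0.48 (SE 0.0977), a fold of 1.39, at 8 h and -0.77 (SE 0.0991), a fold of 0.588, at 24 h. Within each mock group replicate 2 was the highest for TMO5, and it was also the highest for 9 of 9 xylem vessel markers at 8 h and for 7 of 9 at 24 h. Phloem markers were highest in that replicate for 4 of 6 in mock roots at 8 h and for 6 of 6 at 24 h. Cambium markers were highest there for 0 of 6 at 8 h and 4 of 6 at 24 h. In induced roots at 8 h TMO5 was again highest in replicate 2, where 1 of 9 vessel markers was. The part of these markers in the TMO5 value of that replicate was not tested.

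At 8 h T5L1 measured 53.86, 43.8 and 54.44 CPM in the mock and 57.46, 58.16 and 53.38 CPM in the induced libraries. At 24 h the mock libraries held 62.89, 51.81 and 54.86 CPM and the induced ones 75.72, 73.5 and 64.5 CPM. The first 3 groups in order of mean, which are mock 8 h, induced 8 h and mock 24 h, overlapped, and the induced libraries at 24 h stood apart above them. The log2 difference was 0.15 (SE 0.0953) at 8 h and 0.33 (SE 0.0947) at 24 h.

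LHW, the shared partner, had 8 h levels of 141.4, 125.2 and 136.7 CPM without and 164.6, 154.2 and 160.9 CPM with induction. Its 24 h levels were 137.9, 135.2 and 130.6 CPM without and 134.3, 133.8 and 121.3 CPM with induction. Only the induced libraries at 8 h stood apart, above the other 3 groups, which overlapped. The log2 difference was 0.25 (SE 0.0579) at 8 h and -0.05 (SE 0.0579) at 24 h, where scaling by total counts gave 0.09.

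SACL3, the competitor for LHW, measured 32.23, 37.09 and 36.8 CPM in the mock libraries of 8 h and 38.16, 35.27 and 36.57 CPM in the induced ones. For 24 h the mock values were 29.75, 36.23 and 34.18 CPM and the induced values 21.13, 24.92 and 25.07 CPM. Every induced library at 24 h was below the other 9 libraries, which overlapped across their groups. The log2 difference was 0.05 (SE 0.0875) at 8 h and -0.49 (SE 0.0886), a fold of 0.71, at 24 h.

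ACL5, the thermospermine synthase, had 158.9, 141.3 and 152.6 CPM in the mock libraries and 183.2, 177.4 and 162.6 CPM in the induced libraries of 8 h. Those of 24 h had 174.7, 175.0 and 160.6 CPM (mock) and 86.51, 91.21 and 89.84 CPM (induced). The lowest induced library at 8 h exceeded the highest mock library of that time by a narrow margin, and it lay within the range of the mock libraries at 24 h. The induced libraries at 24 h lay far below all others. The log2 difference was 0.21 (SE 0.0606) at 8 h and -0.93 (SE 0.0612), a fold of 0.524, at 24 h.

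The 3′ end of ACL5 shares 196 bases with MSL9 (AT5G19520), a channel gene at chr5:6585355-6588966 on the opposite strand. The strand setting of the counting is not given in the sources used here, so reads of both genes in those bases cannot be told apart. MSL9 rose at both times, with log2 differences of 1.33 (edgeR adjusted p = 0.0405) and 2.75 (adjusted p = 0.000222), but its counts equalled only 0.627% to 28.2% of those of ACL5. Taking the MSL9 counts off those of ACL5 gave log2 differences of 0.16 at 8 h and -1.34 at 24 h, and adding them gave 0.25 and -0.63, so the signs held in this check, which was chosen after seeing the data. No other gene of the 6 overlaps a counted locus.

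BUD2 was the least abundant of the 6. At 8 h its mock libraries measured 12.86, 12.53 and 11.72 CPM and its induced libraries 17.54, 18.39 and 15.52 CPM. At 24 h they measured 14.5, 14.41 and 12.23 CPM and 7.696, 6.445 and 7.765 CPM. As for TMO5, the induced libraries lay above both mock groups at 8 h and below them at 24 h, and the mock groups overlapped. The log2 difference was 0.47 (SE 0.0948) at 8 h and -0.91 (SE 0.0984), a fold of 0.532, at 24 h.

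**Figure D1:**
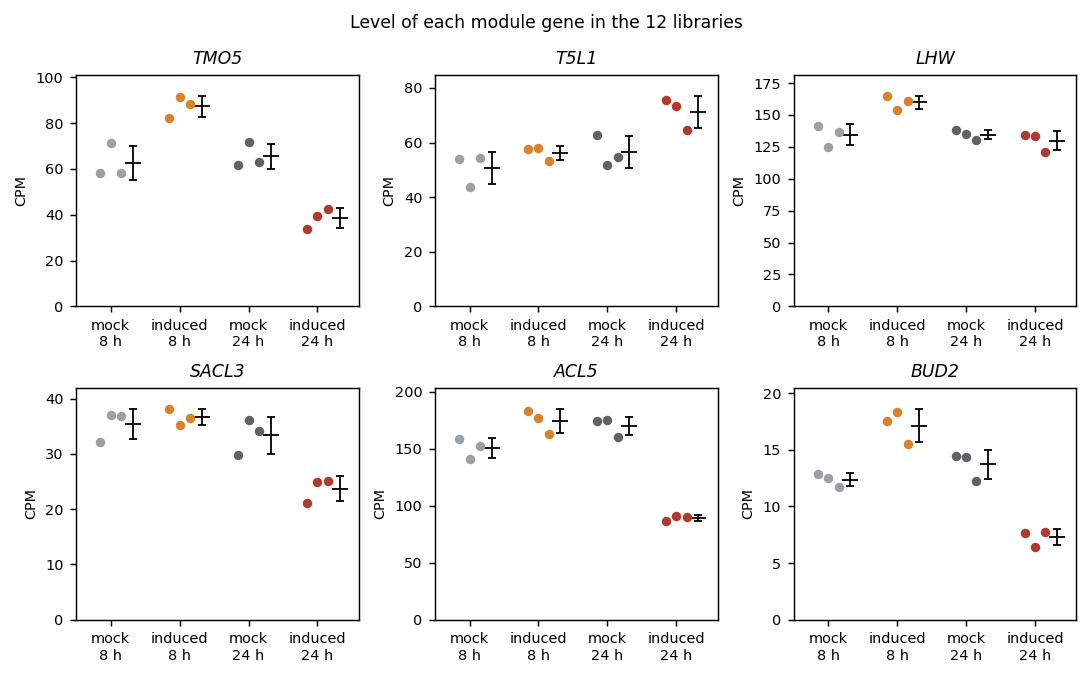
Level in CPM of the 6 genes in the 12 libraries, 1 panel per gene with its own axis from 0, grouped as mock or induced at 8 h or 24 h; points are replicates 1 to 3 from left to right, and the bar is the mean with SD (n = 3). TMO5 and BUD2 induced libraries lie above mock at 8 h and below at 24 h, and T5L1 is the gene whose induced libraries at 24 h lie above all others.

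At 8 h, 4 of the 6 genes (TMO5, LHW, ACL5 and BUD2) passed the edgeR threshold as higher and 0 as lower, where 22.3% of all genes tested were called higher. At 24 h, 4 of 6 (TMO5, SACL3, ACL5 and BUD2) passed as lower and T5L1 as higher, where 34% of all genes were called lower and 38.3% higher. The pattern of higher at 8 h and lower at 24 h held for 3 of 6 and for 0.746% of all genes tested. The libraries of induced and mock roots did not overlap for 4 genes higher at 8 h, 4 lower at 24 h and 1 higher at 24 h, where 28.2%, 34.9% and 40.4% of all genes did not. Because the genes were chosen on these contrasts, nothing is read from these shares. The median log2 difference over the 6 was 0.23 at 8 h and -0.63 at 24 h, against 0.02 and 0.06 over all genes tested. Without mock replicate 2 at 8 h, or without induced replicate 1 at 8 h, ACL5 no longer passed and 2 of 6 kept the pattern.

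The mock roots of both times differed little for the module. None of the 6 genes was called between mock at 24 h and mock at 8 h by edgeR, where 0.662% of all genes were. An unadjusted edgeR p under 0.05 was reached by 1 of the 6 and by 2032 of all 21439 genes tested. DESeq2 called none of the 6 either, where it called 262 of all genes tested higher and 123 lower. ACL5 was the gene of the 6 whose mock libraries did not overlap between the times, as for 6.72% of all genes with a higher level at 24 h, with a mean of 150.9 ± 8.92 CPM at 8 h and 170.1 ± 8.21 CPM at 24 h.

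Divided by exon length, ACL5 was the most abundant of the 6 transcripts in every group, at 88.93 CPM per kilobase in mock roots at 8 h, and BUD2 the least, at 7.505. In mock roots at 8 h LHW followed ACL5 with 49.67, then TMO5 with 41.05, T5L1 with 25.95 and SACL3 with 14.09 CPM per kilobase. In induced roots at 24 h T5L1, at 36.46, stood above TMO5, at 25.27, and ACL5, at 52.56, had come close to LHW, at 47.96. The ratio of TMO5 to LHW per kilobase was 0.864 ± 0.075 in mock and 0.53 ± 0.086 in induced roots at 24 h, and the induced and mock libraries did not overlap. The ratio of TMO5 to its competitor SACL3 was 2.92 ± 0.289 in mock and 3.93 ± 0.364 in induced roots at 8 h, and 3.24 ± 0.194 and 2.67 ± 0.0955 at 24 h.

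Shares within a family do not depend on how libraries are scaled to each other. Of the summed level per kilobase of TMO5, T5L1, T5L2 and T5L3, T5L1 made up 28.3% ± 3.42 in mock and 27.1% ± 1.4 in induced roots at 8 h, then 29.9% ± 3.48 in mock and 53.3% ± 3.73 in induced roots at 24 h. The lowest induced share at 24 h, 49.5%, was above the highest of any other library, 33.2%. TMO5 made up 53.8% ± 1.76 in induced roots at 8 h against 44.7% ± 5.28 in mock, and 37.0% ± 4.5 against 44.3% ± 2.46 at 24 h, where the highest induced and the lowest mock share met at 41.7%. The clade sum itself went from 96.96 ± 3.99 in mock to 68.34 ± 1.84 CPM per kilobase in induced roots at 24 h.

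LHW made up 50.1% ± 2.16 of its family of 4 in mock and 56.0% ± 0.179 in induced roots at 8 h, and 50.7% ± 0.698 and 62.1% ± 2.29 at 24 h. SACL3 made up 8.14% ± 0.836 of the SAC51 family in mock and 12.4% ± 0.0578 in induced roots at 8 h, and 7.88% ± 0.742 and 12.4% ± 0.953 at 24 h. In both families the shares of induced and mock libraries did not overlap at either time. The larger share of SACL3 stood beside a smaller family, whose sum was 173.4 ± 6.6 in mock and 117.9 ± 4.95 CPM per kilobase in induced roots at 8 h, and 168.9 ± 8.91 and 76.24 ± 3.37 at 24 h.

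Among the enzymes, BUD2 was a small part of the S-adenosylmethionine decarboxylase family, 1.77% ± 0.144 in mock and 3.15% ± 0.504 in induced roots at 8 h. At 24 h its share was 2.01% ± 0.246 in mock and 1.78% ± 0.181 in induced roots, and these overlapped. ACL5 made up 30.4% ± 0.864 of the summed level of the 4 aminopropyltransferases ACL5, SPDS1, SPDS2 and SPMS in mock and 14.7% ± 0.362 in induced roots at 24 h. ACL5 and PAO5, an oxidase that breaks thermospermine down, gave another picture. The ratio of ACL5 to PAO5 per kilobase was 1.18 ± 0.0885 in mock and 5.44 ± 0.971 in induced roots at 8 h, and 1.36 ± 0.0498 and 5.08 ± 0.289 at 24 h, so the synthase transcript exceeded that of the oxidase by a larger factor in induced roots at both times.

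**Figure D2:**
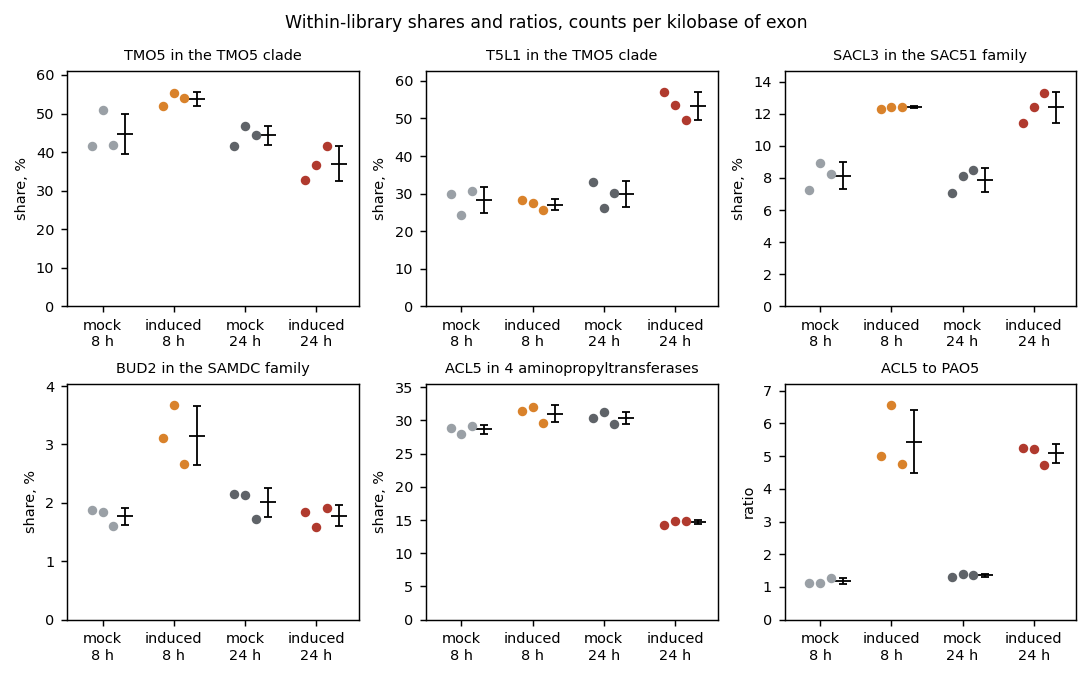
Within-library shares in percent, and in the last panel the ratio of ACL5 to PAO5, from counts per kilobase of exon in the 12 libraries; points are replicates, bars the mean with SD (n = 3), and all axes start at 0. T5L1 holds 49.5% to 57.0% of the TMO5 clade in induced roots at 24 h and at most 33.2% in every other library.

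The other genes of the pathway were tested, and the module genes can be read beside them. Their lists were also chosen with earlier results of these data known, so they are no independent comparison. Of 36 such genes in 4 lists, 35 passed the filter on low counts. At 8 h, 5 were higher and 15 lower by edgeR, with a median log2 difference of -0.24, where 22.3% of all genes were called higher and 23.1% lower. At 24 h, 7 were higher and 20 lower, with a median of -0.59, where 38.3% and 34% were called. The 24 h response was higher than the 8 h response for 6 and lower for 18, where 18.2% and 22.6% of all genes were called. Of these 35 genes, 13 fell at both times (20.2% of all genes did) and 4 rose at both (18.1% of all). None had the pattern of TMO5, ACL5 and BUD2, which 0.746% of all genes had, so nothing is read from its absence. Between the mock groups edgeR called 0 of the 35, where 0.662% of all genes were called. An unadjusted edgeR p under 0.05 was reached by 2 of the 35 and by 2032 of all 21439 genes tested. DESeq2 called 0 of the 35, where it called 262 of all genes tested higher and 123 lower.

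The bHLH relatives of the module fell. Of the 8 relatives, 5 fell at 8 h and 8 at 24 h, where 23.1% and 34% of all genes tested were called lower. None rose, and the median log2 difference was -0.34 at 8 h and -1.3 at 24 h. In the TMO5 clade, T5L3 went from 32.87 ± 2.78 CPM in mock to 7.826 ± 0.45 CPM in induced roots at 24 h, a log2 difference of -2.07 (SE 0.0819, adjusted p = 4.91e-10), while at 8 h the difference was -0.26 (adjusted p = 0.0137). T5L2, with a mean of at most 5.389 CPM in any group, fell by 1.34 on the log2 scale at 24 h (adjusted p = 2.84e-05).

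The relatives of LHW and of SACL3 also fell. LHL3 fell by 1.62 at 24 h (SE 0.0854, adjusted p = 5.06e-09) with no call at 8 h (log2 difference 0.08, adjusted p = 0.428). LHL2 fell by 0.26 at 8 h (adjusted p = 0.00468) and by 0.75 at 24 h, and LHL1 fell by 0.34 at 24 h. The relatives of SACL3 whose translation is likewise held back by upstream reading frames are SAC51, SACL1 and SACL2. SACL2 went from 48.0 ± 1.96 to 23.33 ± 1.29 CPM at 8 h, a log2 difference of -1.04 (adjusted p = 5.6e-06), and from 43.25 ± 5.87 to 8.596 ± 1.03 CPM at 24 h, a difference of -2.33 (adjusted p = 1.45e-09). SAC51 fell by 0.59 and 0.96 and SACL1 by 0.52 and 1.27 at 8 h and 24 h, where SACL3 had 0.05 and -0.49.

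Around ACL5 and BUD2, the list of 15 polyamine genes moved both ways. At 8 h 2 were higher and 6 lower, where 22.3% and 23.1% of all genes tested were called. At 24 h 5 were higher and 5 lower, where 38.3% and 34% were called. The median log2 differences were -0.15 and 0.15. The oxidases PAO5 and PAO4 fell at both times, while the oxidase PAO3 rose at both, by 0.17 and 0.43 on the log2 scale. PAO2 was called lower at 8 h only and PAO1 at 24 h only. Of the genes that make putrescine, AIH was called higher at both times, with log2 differences of 0.29 and 0.38. ADC2 was called lower at 8 h only (-0.62) and CPA higher at 24 h only (0.34). PAO5 went from 156.7 ± 12.8 to 39.71 ± 6.02 CPM at 8 h (log2 difference -1.98, SE 0.104, adjusted p = 8.16e-08) and from 152.5 ± 10.2 to 21.44 ± 1.52 CPM at 24 h (-2.83, SE 0.109, adjusted p = 3.99e-10). PAO4 fell by 0.84 and 1.02. Of the relatives of BUD2, SAMDC3 went from 18.56 ± 0.28 to 8.47 ± 0.726 CPM at 8 h and from 18.85 ± 2.17 to 2.074 ± 0.476 CPM at 24 h (log2 difference -3.18, SE 0.139, adjusted p = 1.02e-09). SAMDC1, the most abundant decarboxylase, fell by 0.36 and 0.73. The spermidine synthases SPDS1 and SPDS2 rose at 24 h, each by 0.45 (adjusted p = 4.24e-06 and 7.36e-06), the opposite of ACL5, which uses spermidine.

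Of 6 upstream regulators, 1 rose and 2 fell at 8 h, where 22.3% and 23.1% of all genes tested did. At 24 h 4 fell, where 34% of all genes tested did. The median log2 differences were -0.13 and -0.42. MP, the activator of TMO5, averaged 94.8 CPM in the mock and 96.74 CPM in the induced libraries of 8 h (log2 difference 0.03, adjusted p = 0.609), and under total-count scaling it was called higher (0.13, adjusted p = 0.0249). At 24 h MP went from 98.06 to 65.27 CPM, a fall of 0.59 (SE 0.043, adjusted p = 1.01e-07). ATHB8, the activator of ACL5 and BUD2, had a log2 difference of -0.08 (adjusted p = 0.352) at 8 h and fell by 0.71 (adjusted p = 7.68e-07) at 24 h. Among the other HD-ZIP III genes PHB rose by 0.30 at 8 h (adjusted p = 0.00418), while CNA and REV fell at both times, by 0.24 each at 8 h and by 0.66 and 0.26 at 24 h. Under total-count scaling CNA at 8 h and REV at both times did not pass, and REV at 8 h also did not pass without induced replicate 2 of that time (-0.18, adjusted p = 0.0535).

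Targets of TMO5-LHW and of MP went both ways. Of 7, 6 were tested, with 2 higher and 2 lower at 8 h, where 22.3% and 23.1% of all genes tested were called. At 24 h 2 were higher and 3 lower, where 38.3% and 34% were called. With 6 genes, nothing is read from these counts. The median log2 differences were -0.15 and -0.23. LOG4, a cytokinin-releasing enzyme and a direct target of the pair, went from 1.918 ± 0.313 to 3.94 ± 0.68 CPM at 8 h (log2 difference 1.04, SE 0.164, adjusted p = 0.000277) and from 2.307 ± 0.164 to 3.795 ± 0.309 CPM at 24 h (0.72, adjusted p = 0.00143). LOG3 fell by 0.53 (adjusted p = 0.00811) and 1.18 (adjusted p = 7.14e-06). DOF2.1, a target that promotes the same divisions, had log2 differences of -0.76 at 8 h (adjusted p = 1.67e-06) and -1.38 at 24 h (adjusted p = 1.5e-09), the latter from 86.57 ± 0.921 to 33.16 ± 1.29 CPM. TMO6, a target of MP, fell by 1.53 at 24 h (adjusted p = 3.96e-09) with no call at 8 h. CRF2, a cytokinin response factor, rose by 0.60 and 1.49. AHP6, a cytokinin signalling inhibitor of the protoxylem, was under the filter, with group means of at most 0.2711 CPM.

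**Figure D3:**
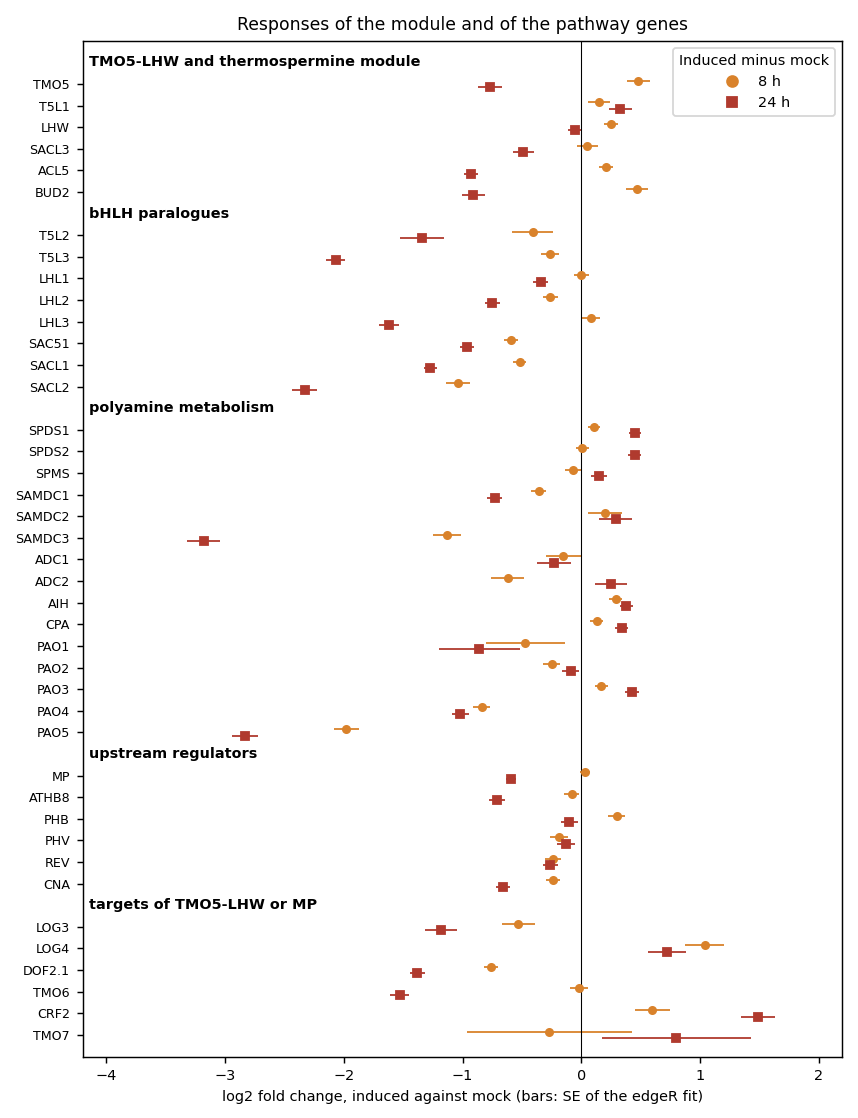
Log2 fold change of induced against mock at 8 h (circles) and 24 h (squares) from the edgeR fit for the 6 module genes and the 35 pathway genes tested, with bars for the SE. TMO5, ACL5 and BUD2 have their 8 h point above 0 and their 24 h point below it, while all 8 bHLH relatives lie below 0 at 24 h.

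Vascular marker genes moved in the same libraries. For the counts below, 22.3% of all genes tested were called higher and 23.1% lower at 8 h, and 38.3% and 34% at 24 h. The 9 xylem vessel genes summed to 474.3 to 765.7 CPM in the mock and 428.5 to 611.3 CPM in the induced libraries of 8 h, where 1 of 9 fell, and to 475.2 to 719.6 and 125.2 to 184.1 CPM at 24 h, where all 9 fell. The 6 cambium genes all fell at both times, from 507.0 to 568.6 down to 238.3 to 280.7 CPM at 8 h and from 532.7 to 563.9 down to 73.36 to 74.72 CPM at 24 h. The 6 phloem genes summed to 382.7 to 477.5 and 475.9 to 532.8 CPM at 8 h, with 1 higher and 3 lower, and to 377.4 to 488.0 and 228.1 to 235.6 CPM at 24 h, with 1 higher and 5 lower. The gene that rose was the sucrose transporter gene SUC2, named after its values were seen, with means of 34.63 and 179.6 CPM at 8 h and 37.69 and 139.1 CPM at 24 h. No marker of these lists was at 0 in all libraries. The lower TMO5, SACL3, ACL5 and BUD2 levels at 24 h thus stood beside lower vessel and cambium markers, and the higher TMO5, LHW, ACL5 and BUD2 levels at 8 h beside cambium sums that were already reduced. The part of these markers in the module's values was not tested.

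Sums of pericycle, endodermis and cortex markers were also lower in induced roots, at 8 h as well as at 24 h. At 24 h 34% of all genes tested were called lower and 38.3% higher. At 8 h these shares were 23.1% and 22.3%. The 2 pericycle genes summed to 127.2 to 156.5 CPM (mock) and 53.73 to 58.53 CPM (induced) at 8 h, with both called lower. At 24 h they summed to 120.2 to 145.7 CPM (mock) and 15.36 to 21.25 CPM (induced), with 1 of 2 called lower. The 5 endodermis and suberin genes went from 384.5 to 412.7 down to 262.0 to 309.5 CPM at 8 h, with 3 of 5 lower. At 24 h they went from 394.8 to 455.2 down to 17.92 to 34.86 CPM, with 5 of 5 lower. The 2 cortex genes went from 83.07 to 116.8 down to 14.77 to 28.73 CPM at 8 h, with both lower. At 24 h they went from 76.78 to 83.99 down to 0.4087 to 1.337 CPM, again with both lower. Of the 6 cell division genes, 5 rose at 24 h, with sums of 209.7 to 237.0 CPM (mock) and 299.4 to 346.2 CPM (induced), and 1 rose and 3 fell at 8 h, with sums of 162.5 to 174.6 and 147.3 to 155.9 CPM. The 4 epidermis genes stayed at 7.997 summed CPM or less in every library, 2 of them higher at 24 h, and the 4 root tip genes at 8.101 or less, all 4 of the latter higher at 24 h.

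**Figure D4:**
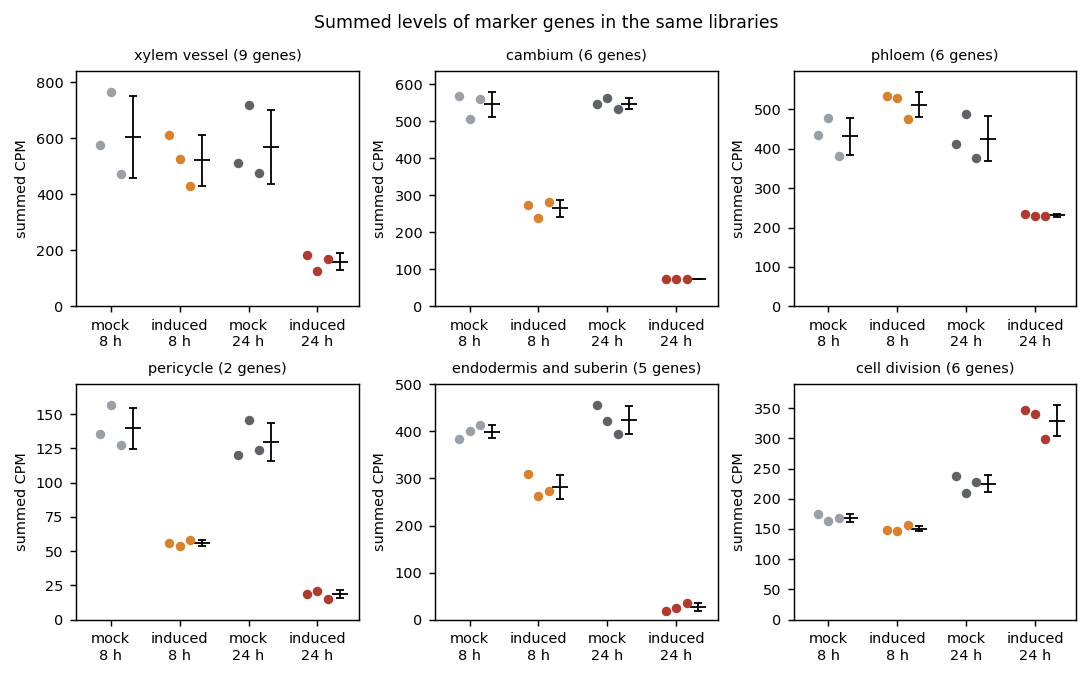
Summed CPM of the marker genes of 6 lists in each of the 12 libraries, with the mean and SD of each group (n = 3) and axes from 0. Cambium sums are lower in induced roots at both times, vessel sums do not separate at 8 h and reach at most 184.1 CPM in induced roots at 24 h.

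The genes most like each module gene over the 12 libraries were found by the root mean square (RMS) difference of log2 CPM after centring each gene, among 18986 genes with a mean of at least 1 CPM outside the lists. The nearest to ACL5 were PHOT1 (0.0961), the phloem gene NAKR1 (0.0972) and AT5G22050 (0.0974), and the nearest to BUD2 was NAKR1 as well (0.1115), followed by Lhca5 (0.141) and AT5G24320 (0.1448). NAKR1 averaged 11.63 and 14.33 CPM in mock and induced roots at 8 h and 12.81 and 6.847 CPM at 24 h. Nearest to TMO5 was AT1G61590 (0.1066), then CYP705A4 (0.1269) and BGAL1 (0.1287). For LHW, NRPD1A (0.0546), TRM8 (0.0547) and HBP5 (0.0574) came nearest, for SACL3 RABG3B (0.0699), the gibberellin receptor gene GID1A (0.0713) and AT5G46270 (0.0754), and for T5L1 AT3G05070 (0.063), AT2G32600 (0.0638) and AT3G23910 (0.068). Between module genes ACL5 and BUD2 were nearest, at 0.15, followed by TMO5 and BUD2 at 0.153, and T5L1 and BUD2 were furthest, at 0.617.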

How the data were processed

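RNA sequencing of 12 root samples gave the deposited counts, which the authors supplied as whole numbers per gene, 1 file per sample, with position, length and strand in the file headers. Per the submitters' processing notes the build is TAIR10. The kit was a strand-marking one (TruSeq Stranded Total RNA, per the labels' protocols). Aligner, counter and strand setting were not given in the sources used here. Loci were matched to RefSeq TAIR10.1 by locus tag (32548 of 34262, with 99.95% in the same interval).

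Counts were fitted in R 4.3.3 with the quasi-likelihood test of edgeR 4.0.16 (TMM, filterByExpr, 1 coefficient per group, all 12 libraries, Benjamini-Hochberg threshold 0.05 over 21439 genes). The dispersion gave a biological coefficient of variation of 0.0926. CPM used TMM-scaled totals. SE is the absolute log2 difference over the square root of F. Alternatives were relative log expression (RLE) factors, total counts, no filter, 6-library fits, a replicate block, DESeq2 1.42.0 and leaving out each library. Coding alignments used Biopython 1.88. Replicates correlated at 0.989 to 0.9932 on log2 CPM, and none were duplicates.

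The 6 genes and all lists were chosen with earlier results of these data known. Named pathway genes are all bHLH relatives and, per list and comparison, up to 4 called genes by adjusted p. AHP6 was named as the gene that failed the filter, and PLT5 and MSL9 as checks. ADC2, AIH, CPA, PAO1, PAO2 and PAO3 were added so that every called gene of the polyamine list is named.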

Additional observations from a re-analysis of the deposited data

Results flagged for a closer look

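The responses at 8 h and 24 h differed for 21 of the named pathway genes by the interaction test of edgeR (24 h minus 8 h response, log2, adjusted p from 2.48e-07 to 0.0181). Among the bHLH relatives the 24 h response was lower than the 8 h response by these differences: T5L2 -0.93, T5L3 -1.81, LHL1 -0.34, LHL2 -0.49, LHL3 -1.70, SAC51 -0.37, SACL1 -0.75 and SACL2 -1.29. Among polyamine genes the differences were -0.85 for PAO5, -2.05 for SAMDC3, -0.37 for SAMDC1, 0.44 for SPDS2 and 0.34 for SPDS1. Not counted in the 21 are ADC2 (0.87, adjusted p = 0.0035), PAO3 (0.26, adjusted p = 0.0228) and CPA (0.20, adjusted p = 0.0497). With them the list of 15 had 5 genes called higher and 3 lower by the same test. Among upstream regulators they were -0.62 for MP, -0.63 for ATHB8, -0.40 for PHB and -0.42 for CNA. Among targets they were -0.63 for DOF2.1, -0.65 for LOG3, -1.51 for TMO6 and 0.90 for CRF2. Of these genes PHB, LHL3 and MP had a log2 difference above 0 at 8 h and below 0 at 24 h. PHB had 0.30 and -0.10, of which only the first was called, while LHL3 had 0.08 and -1.62 and MP 0.03 and -0.59, of which only the second was called. Over all genes tested, 22.6% had a lower and 18.2% a higher response at 24 h.

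For TMO5, ACL5 and BUD2 every induced library was above the mock libraries at 8 h and below them at 24 h. Of all genes tested, 28.2% showed the first and 34.9% the second, and the share with both was not computed. The differences of the responses were -1.24 (SE 0.139) for TMO5, -1.14 (SE 0.086) for ACL5 and -1.38 (SE 0.137) for BUD2. They are given as a description, and the differences were not tested here, since the genes had been chosen on them.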

How the results depend on the processing

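The added ADC2, AIH, CPA, PAO1, PAO2 and PAO3 aside, no called difference of a named pathway or module gene changed sign under any alternative run. Total counts in place of TMM shifted the all-gene median log2 difference by 0.096 (8 h) and 0.142 (24 h), and pathway genes called higher at 8 h numbered 8 against 5. For the module it gave 0.48 for T5L1 at 24 h, 0.35 and 0.09 for LHW at 8 h and 24 h, 0.15 for SACL3 at 8 h, and 0.31 and -0.79 for ACL5. Relative to that shift LHW at 24 h remained below the median. Leaving out 1 library at a time gave 3 to 4 module genes called higher at 8 h, 4 to 4 called lower at 24 h, and 4 to 6 pathway genes higher and 12 to 17 lower at 8 h. T5L3 lost its 8 h call without mock replicate 1 (adjusted p = 0.0528) or induced replicate 2 (0.066) and with total counts (0.0812). T5L2 gained an 8 h call with DESeq2 (0.0494) and without mock replicate 2 (0.0464) or induced replicate 3 (0.0372) at 8 h, or induced replicate 3 at 24 h (0.0414).

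Same-numbered mock and induced libraries correlated at 0.171, -0.00388 and 0.0349 at 8 h and 0.253, 0.0590 and 0.121 at 24 h. Differently numbered ones ranged from -0.150 to 0.110 at 8 h and from -0.266 to 0.132 at 24 h. These values do not settle whether the numbers mark pairs. The labels name no pairing, so the main fit used none, and the replicate block gives the other reading. With the replicate block 6 pathway genes were higher and 16 lower at 8 h, 9 and 20 at 24 h, 7 and 19 for the difference, and 0 and 0 between mocks. The module had 4 called higher at 8 h, 4 lower at 24 h and 3 in both. At these depths BUD2 still had 270 to 720 counts per library, whereas AHP6 and TMO7 were too low for a firm statement.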

Other observations

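Of 4 green tissue genes, 3 rose at 8 h, where 22.3% of all genes tested were called higher, and 2 fell at 24 h, where 34% were called lower. RBCS1A, the small subunit of Rubisco, rose from 754.4 ± 16.1 to 917.4 ± 78.4 CPM at 8 h (log2 difference 0.28, edgeR adjusted p = 0.0146) and fell from 753.7 ± 73.0 to 589.7 ± 41.9 CPM at 24 h (-0.35, adjusted p = 0.00193). LHCB2.1 and RCA rose at 8 h by 0.67 and 0.26, with no call at 24 h (-0.28 and -0.08). LHCB1.3 had a log2 difference of 0.14 at 8 h (adjusted p = 0.348) and fell by 0.85 at 24 h. Their summed CPM was 2327 to 2351 in mock and 2367 to 2879 in induced libraries at 8 h, and 2005 to 2688 and 1504 to 1606 at 24 h. Over all 21439 genes tested, 160 were called higher at 8 h and lower at 24 h.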
